A study of Arabidopsis thaliana with 9 samples.

Results

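The genes described here encode proteins of the cytosolic ribosome of *Arabidopsis thaliana*. They are a chosen set of 38 loci among the 37361 of the count files, in 22 families, with 19 genes of the large subunit and 19 of the small subunit counting *RACK1A*, and no gene of a plastid ribosomal protein. Counts came from polyadenylated RNA of whole seedlings aged 14 days, grown untreated on diluted MS medium with 1% sucrose at 22 °C in a cycle of 16 h light and 8 h dark. The groups were the wild type Col and the mutants thp1-5 and sac3bc, with 3 libraries per genotype. Both mutants are named for genes of TREX-2, a complex at the nuclear pore that takes part in mRNA export (*THP1* in the one, *SAC3B* and *SAC3C* in the other), and the series examined mRNAs in them. The labels give neither the lesion of each allele nor the origin of the libraries of a group in separate cultures, and p-values thus measure only the spread between these libraries, which may be technical.

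Proteins of the cytosolic ribosome bind ribosomal RNA in the nucleolus, are exported within the ribosomal subunits and translate the mRNAs of the cell. Their genes are highly expressed in growing tissue, and in *Arabidopsis* most of these proteins are encoded by several paralogs. Loss of single paralogs can give pointed leaves, slow growth or embryo lethality. Many of the genes carry telo boxes and site II elements close to their start, short motifs known from promoters of genes for translation and cell division. RACK1 is a WD40 scaffold protein on the small subunit that links the ribosome to signalling.

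Libraries held 12.8 to 17.9 M counts. The locus of *THP1* stood at 11.6 to 14.1 CPM (counts scaled to a common library size with TMM factors) in Col, at 11.1 to 12.7 CPM in thp1-5 and at 5.00 to 6.88 CPM in sac3bc. A count over the whole locus does not test the thp1-5 allele, since the labels do not place its lesion. *SAC3B* stood at 46.6 to 47.2 CPM in Col, 30.8 to 36.4 CPM in thp1-5 and 23.0 to 27.7 CPM in sac3bc. *SAC3C* stood at 14.2 to 15.8, 12.8 to 13.7 and 7.55 to 7.95 CPM in the same order. The share of the 10 most abundant loci was 9.33% for Col, 6.90% for thp1-5 and 6.19% for sac3bc. Of the 4 leaf mesophyll markers, all 4 were lower in both mutants than in Col, with summed levels of 25238 to 26234 CPM in Col, 17279 to 18044 CPM in thp1-5 and 14928 to 15644 CPM in sac3bc. Of the 6 proliferating cell markers, all 6 were higher in both mutants, with summed levels of 75.6 to 78.4, 125 to 129 and 110 to 114 CPM in the same order. Root markers were higher for 6 of 7 genes in each mutant, while *PYK10*, a beta-glucosidase gene of roots, was lower and the sum of the list was 3727 to 3795 CPM in Col, 1828 to 1870 CPM in thp1-5 and 1825 to 1877 CPM in sac3bc. Seed markers were lower for 3 of 3 genes, at 70.1 to 72.9, 17.7 to 18.8 and 1.43 to 2.84 CPM, and no marker of these lists was at 0 in any group. The part of these shifts in the results on ribosomal protein genes was not tested, and in RNA of whole seedlings fewer cells of a type and less RNA per cell cannot be told apart.

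The 38 genes took a larger share of the counts in both mutants than in Col. Their share was 0.578%, 0.576% and 0.585% of all gene counts in the Col libraries, 0.702%, 0.702% and 0.705% in the thp1-5 libraries and 0.777%, 0.780% and 0.797% in the sac3bc libraries. The 3 groups did not overlap, with sac3bc highest and Col lowest. The mean was 0.580 ± 0.00447% in Col, 0.703 ± 0.00187% in thp1-5 and, for sac3bc, 0.785 ± 0.0107% (SD, n = 3 each), which is 1.21 times the Col share in thp1-5 and 1.35 times in sac3bc. With 3 libraries against 3, the two-sided exact permutation test gave p = 0.1 for each comparison, the smallest it can give. A share of all counts also moves when other genes take fewer counts, so the direction of a gene here depends on the denominator, as the scalings below show.

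On the scale of TMM, which assumes most genes to be level between libraries, the set split in thp1-5 and leaned higher in sac3bc. In thp1-5 against Col, 10 of the 38 genes were called higher and 12 lower at a Benjamini-Hochberg adjusted p under 0.05 in edgeR's quasi-likelihood test, and the other 16 were not called. Of all 22400 genes tested, 63.8% were called in this comparison, 32.1% higher and 31.8% lower, so the 57.9% of ribosomal protein genes called is close to the background. The median log2 fold change was −0.02 for the 38 genes and 0.01 for all genes tested, and the 38 values ran from −0.52 to 0.33. In sac3bc against Col, 23 genes were higher and 5 lower, beside 68% of all genes called, 35% higher and 33% lower. Here the median was 0.12 against 0.03 for all genes tested, with a range from −0.27 to 0.46. All 38 genes passed the filter on low counts. Since 63.8% and 68% of all genes tested were called against Col, the zero of this scale is a convention and not a measured level.

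Between the mutants all calls went one way. In sac3bc against thp1-5, 27 of the 38 genes were called higher and 0 lower, while 23% of all genes tested were called, 10.9% higher and 12.1% lower. The fold change was above 0 for all 38 genes, from 0.02 to 0.43, with a median of 0.12 against −0.00 for all genes. DESeq2 called 21 higher and 0 lower, and with no value below 0 there is none lower at an unadjusted p under 0.05.

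The calls on the TMM scale were also counted by subunit. Of the 19 large subunit genes, 7 were higher and 4 lower in thp1-5 than in Col, and 15 higher and 2 lower in sac3bc. Of the 19 small subunit genes, 3 were higher and 8 lower in thp1-5, and 8 higher and 3 lower in sac3bc. The shares of all genes tested were 32.1% higher and 31.8% lower in thp1-5, and 35% and 33% in sac3bc. The median log2 fold change in sac3bc against Col was 0.21 for the large subunit and 0.04 for the small subunit, and the difference between the subunits was not tested. Between the mutants, 13 large and 14 small subunit genes were higher in sac3bc than in thp1-5, beside 10.9% of all genes tested.

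**Figure D1:**
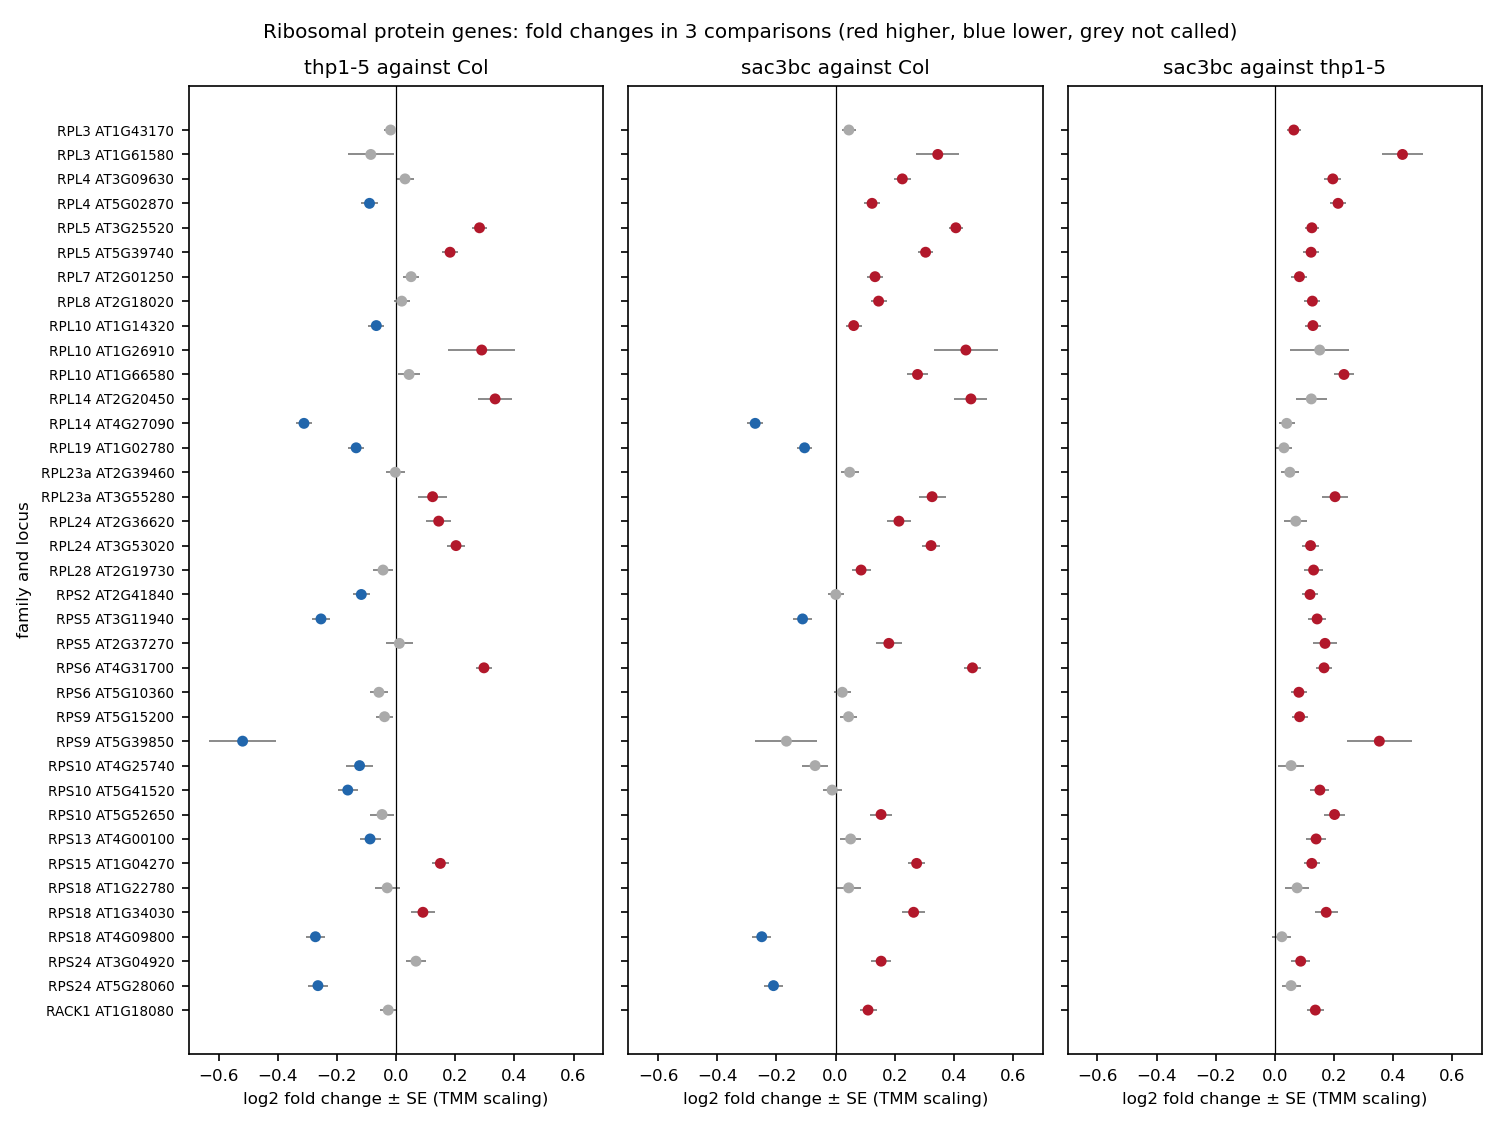
Log2 fold change with its standard error on the TMM scale (x axis) for 37 of the 38 genes (y axis, family and locus) in 3 comparisons, with genes called higher in red, called lower in blue and not called in grey. In thp1-5 against Col 10 genes are red and 12 blue, in sac3bc against Col 22 red and 5 blue, and in sac3bc against thp1-5 27 red and 0 blue; under total counts no gene is blue in any comparison.

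The library scaling set the direction of many of the genes against Col. TMM gave factors of 0.863 to 0.870 in Col, 1.05 to 1.06 in thp1-5 and 1.09 to 1.10 in sac3bc, so each Col library was scaled up relative to its total and each mutant library down. With total counts in place of TMM, 33 of the 38 genes were higher and 0 lower in thp1-5 against Col, with a median of 0.27, but the median of all genes tested then stood at 0.30. Of all genes tested, 56% were then called higher and 16.1% lower. For sac3bc against Col, 37 were higher and 0 lower under total counts, with a median of 0.45 against 0.37 for all genes. Here 60.8% of all genes tested were called higher and 16.2% lower. Total counts without organelle loci and the 10 most abundant loci gave 32 higher and 2 lower in thp1-5, and 35 higher and 0 lower in sac3bc. All genes tested then had 52.7% higher and 17.9% lower in thp1-5, and 56.7% higher and 18.3% lower in sac3bc. With the geometric mean of 10 reference genes the counts were 21 higher and 5 lower in thp1-5, and 31 higher and 3 lower in sac3bc. The shares of all genes tested were 41.1% higher and 24.2% lower in thp1-5, and 42% higher and 26.7% lower in sac3bc. The reference genes themselves were not level on the TMM scale: 6 of the 10 were lower and 1 higher in thp1-5, and AT5G15710, an F-box gene used as a reference, was higher by 0.97 ± 0.10 (log2, SE; edgeR adjusted p = 2.25e-17).

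The set can also be read relative to all genes tested. On the TMM scale the median log2 fold change of the 38 genes against Col was −0.02 beside 0.01 for all genes in thp1-5 and 0.12 beside 0.03 in sac3bc. Total counts moved both medians up together, to 0.27 beside 0.30 and to 0.45 beside 0.37, since a scaling shifts every gene of a library alike. The median log2 level of the 38 genes had an SD of 0.0377 between replicates. That is a spread of single libraries and does not measure the error of the gap between these medians, which was not estimated. Over 6 scalings (TMM, RLE, upper quartile, reference genes, total counts and trimmed total counts), 9 genes were called higher in thp1-5 than in Col under every one, 0 were called lower under every one, and 7 were called higher under some and lower under others. In sac3bc against Col these numbers were 21, 0 and 5. In sac3bc against thp1-5 they were 22, 0 and 0, and all 38 genes had a fold change above 0 under all 6 scalings. Against Col, RLE lay just below TMM, with all-gene medians of 0.0097 in thp1-5 and 0.0131 in sac3bc. The other scalings moved every gene up from TMM. A call of higher under all 6 thus adds little to the TMM call, and a call of lower under all 6 is hard to reach. The share of all genes with such calls was not counted.

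**Figure D2:**
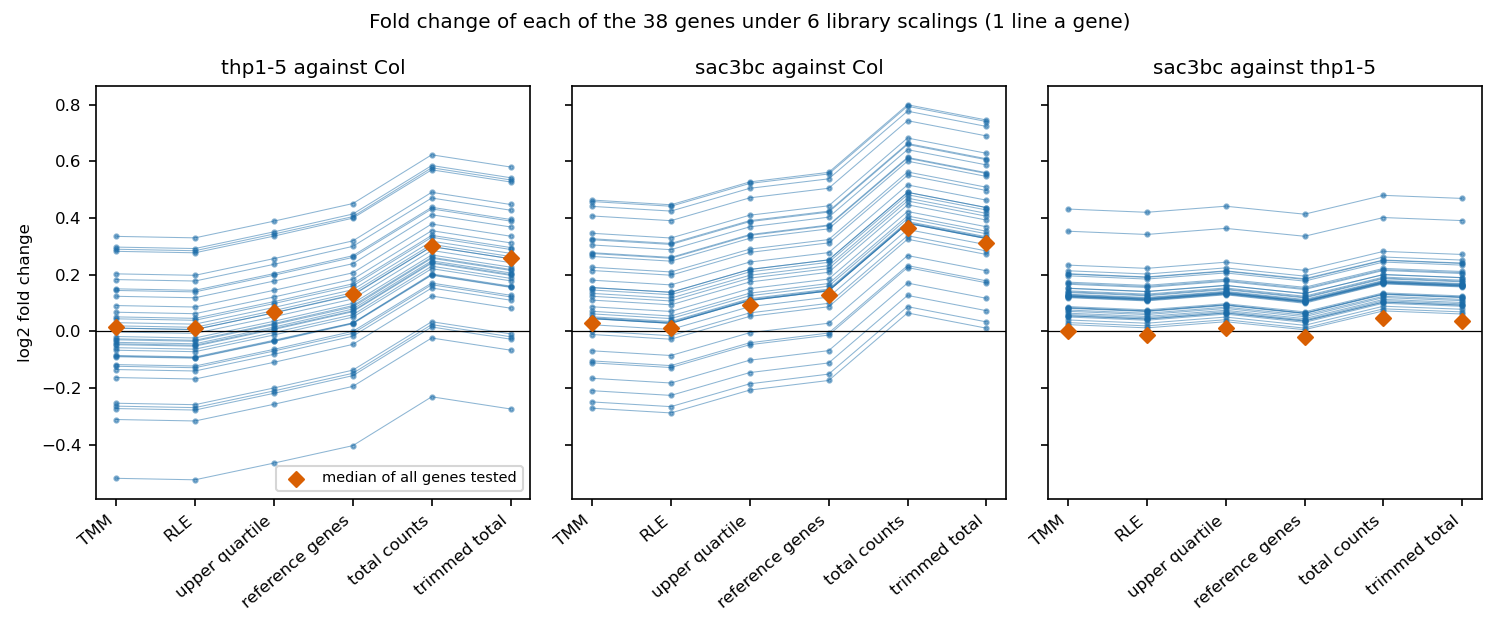
Log2 fold change (y axis) of each of the 38 genes (blue lines) under 6 library scalings (x axis) in 3 comparisons, with the median of all genes tested as orange diamonds. Against Col the lines and the diamonds move up together from TMM to total counts, where the all-gene median is 0.30 in thp1-5 and 0.37 in sac3bc, while in sac3bc against thp1-5 every line stays above 0.

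The genes called higher in thp1-5 than in Col under all 6 scalings were 9: both *RPL5* genes, both *RPL24* genes, *RPL23AB*, *RPL10B*, AT2G20450 of *RPL14*, AT4G31700 of *RPS6* and AT1G04270 of *RPS15*. RPL5 binds 5S ribosomal RNA and is part of the particle that carries it into the large subunit. Its genes AT3G25520 (*ATL5*) and AT5G39740 (*RPL5B*) were higher in thp1-5 by 0.28 ± 0.02 and 0.18 ± 0.03 and in sac3bc by 0.41 ± 0.02 and 0.30 ± 0.03 (log2, SE; edgeR adjusted p at most 1.84e-09). *STV1* (AT3G53020) encodes an RPL24 protein that promotes reinitiation of translation after upstream open reading frames. It was higher by 0.20 ± 0.03 in thp1-5 and 0.32 ± 0.03 in sac3bc, and its paralog AT2G36620 by 0.14 ± 0.04 and 0.21 ± 0.04. *RPS15* (AT1G04270) was higher by 0.15 ± 0.03 and 0.27 ± 0.03.

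Ratios between paralogs within a library do not depend on the library scaling, since both genes share 1 library. There were 19 pairs of paralogs in 13 families, and the log2 ratio of their counts per length was compared over the 3 groups with an exact permutation test over all 1680 assignments. The unadjusted p was under 0.05 for 18 of the 19 pairs, and for 5 of them at 0.00357, the smallest the test can give. The group means of a pair differed by 0.0976 to 0.729 on the log2 scale, with a median of 0.283. The pair AT4G25740 and AT5G41520 of *RPS10* was the exception, with p = 0.189 in the exact permutation test. Ratios of other gene pairs were not computed, and with 63.8% and 68% of all genes called against Col, nothing particular to these paralogs is read from the count of pairs. Pairs of 1 family share genes and are not independent.

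**Figure D3:**
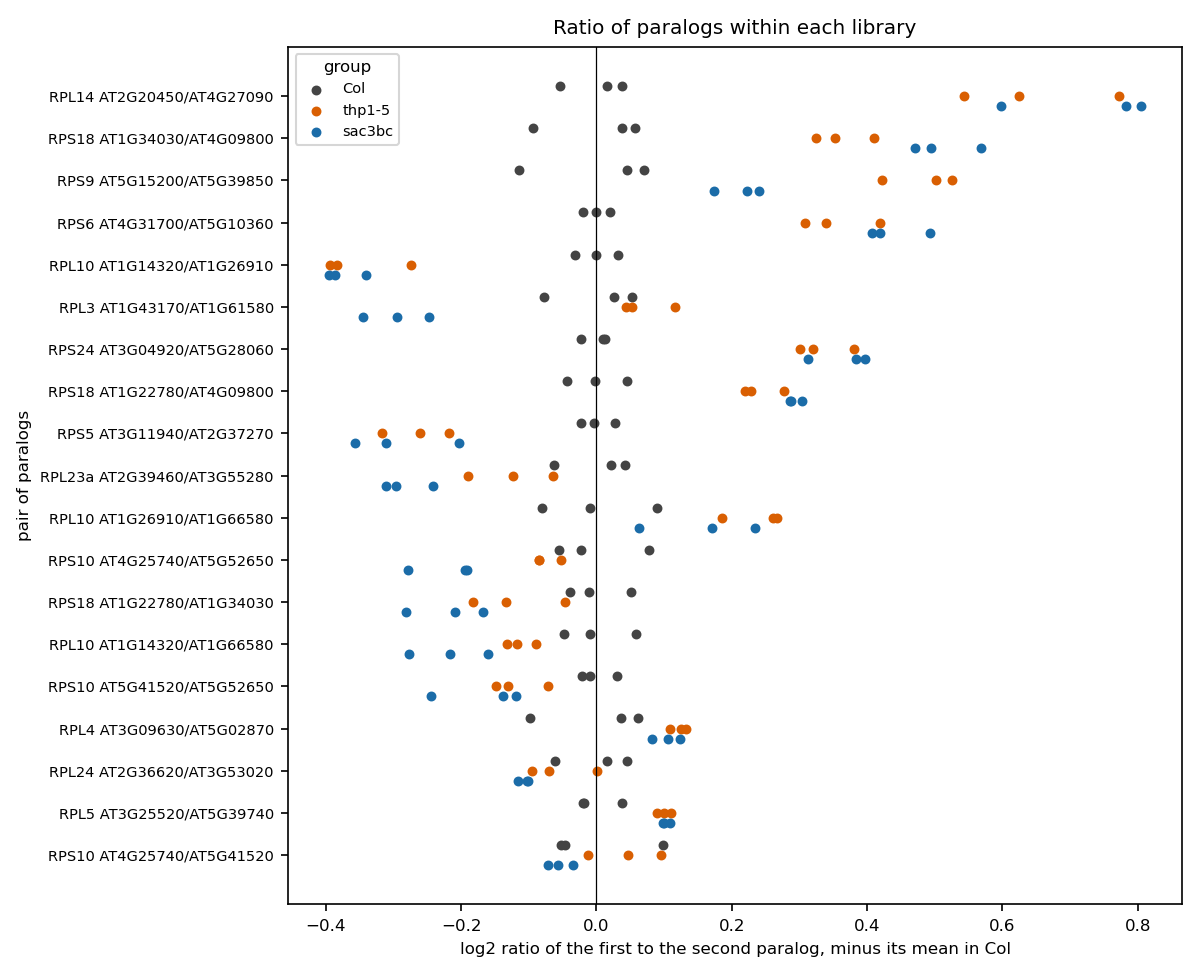
Log2 ratio of the first to the second paralog in each library, minus its mean in Col (x axis), for 19 pairs (y axis) in Col (grey), thp1-5 (orange) and sac3bc (blue), with 1 point a library. The largest shift is that of the *RPL14* pair, with a mean of −3.19 in Col, −2.55 in thp1-5 and, for sac3bc, −2.47, and the smallest that of AT4G25740 and AT5G41520.

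The *RPL14* genes showed the largest shift. RPL14 is a protein of the large subunit, and the protein sequences of its genes AT2G20450 and AT4G27090 are 93.3% identical over 134 aligned residues. AT2G20450 stood at 34.2, 35.9 and 37.0 CPM in Col, 42.4, 44.3 and 48.7 CPM in thp1-5 and 46.3, 51.2 and 49.8 CPM in sac3bc. Both mutants lay above all Col libraries, and the mutants overlapped. AT4G27090 stood at 296, 296 and 300 CPM in Col, 242, 239 and 237 CPM in thp1-5 and 254, 247 and 237 CPM in sac3bc. Here both mutants lay below Col. AT2G20450 was higher by 0.33 ± 0.06 and 0.46 ± 0.06 in thp1-5 and sac3bc (log2, SE; edgeR adjusted p = 2.04e-07 and 7.21e-13), under all 6 scalings. AT4G27090 was lower by 0.31 ± 0.03 and 0.27 ± 0.03 on the TMM scale. Over the 6 scalings its value ran from −0.32 to −0.02 in thp1-5 and from −0.29 to 0.06 in sac3bc. It was called lower under 5 of them in thp1-5, and in sac3bc lower under 4 and higher under 1. Counted per length, AT2G20450 made up 9.85 ± 0.290% of the pair in Col, 14.6 ± 1.01% in thp1-5 and, for sac3bc, 15.3 ± 1.01% (SD, n = 3), with p = 0.0143 over the 3 groups in the exact permutation test. The summed level of the family on the TMM scale was 451 CPM per kb for Col, 384 for thp1-5 and 398 for sac3bc.

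The bases directly upstream of the annotated start of these 2 genes are shown because their ratio shifted most. On the TMM scale the minor gene rose and the major gene fell, so their levels came nearer to each other. Their coding sequences are 84.4% identical. The bases are from the RefSeq annotation of TAIR10.1, 5′ to 3′ on the strand of the gene and without the part inside a neighbouring gene. Capitals mark site II elements (TGGGCC or TGGGCT) and the telo box (AAACCCTA) on either strand.
AT2G20450, chr2:8813697-8813831, plus strand: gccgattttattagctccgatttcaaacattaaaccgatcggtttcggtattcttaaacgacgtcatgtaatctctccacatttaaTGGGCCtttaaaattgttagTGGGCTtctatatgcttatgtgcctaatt
AT4G27090, chr4:13595253-13595457, minus strand: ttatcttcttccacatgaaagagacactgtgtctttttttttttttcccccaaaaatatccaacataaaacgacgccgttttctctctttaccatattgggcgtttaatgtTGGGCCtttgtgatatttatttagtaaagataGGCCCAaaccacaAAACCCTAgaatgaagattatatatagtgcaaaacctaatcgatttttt
Both hold 2 site II elements, and only AT4G27090 has a telo box upstream of the start. That of AT2G20450 begins at base 13, counted from and including the start.

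The *RPS18* genes encode 1 protein: all 3 genes give the same 152 residues, while their coding sequences are 87.1 to 91.1% identical. *PFL* (AT1G22780) is the paralog known for pointed first leaves when it is lost. AT4G09800 (*RPS18C*) stood at 154, 152 and 162 CPM in Col, 126, 133 and 129 CPM in thp1-5 and 135, 134 and 126 CPM in sac3bc, so that both mutants lay below Col; 3.12% of its exonic bases are shared with another locus, and the strand setting of the counts is not known. AT1G34030 stood at 82.3, 80.1 and 77.9 CPM in Col, 85.7, 87.2 and 82.5 CPM in thp1-5 and 97.5, 94.9 and 95.9 CPM in sac3bc, so that the 3 groups did not overlap. AT4G09800 was lower by 0.27 ± 0.03 in thp1-5 and 0.25 ± 0.03 in sac3bc on the TMM scale, and under total counts its values were 0.02 and 0.09. Over the 6 scalings it was called lower under 4 in thp1-5, and in sac3bc lower under 4 and higher under 1. AT1G34030 was higher by 0.09 ± 0.04 and 0.26 ± 0.04, the first of these with an edgeR adjusted p of 0.0474 and called under 5 of 6 scalings. *PFL* was not called in any of the 3 comparisons, at −0.03 ± 0.04, 0.04 ± 0.04 and 0.07 ± 0.04. AT1G34030 made up 34.9 ± 1.29% of the counts per length of its pair with AT4G09800 in Col, 40.8 ± 0.738% in thp1-5 and, for sac3bc, 43.3 ± 0.870% (SD, n = 3), with p = 0.00357 in the exact permutation test. On the TMM scale the 3 genes together stood at 406 CPM per kb in Col, 376 in thp1-5 and 399 in sac3bc.

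The upstream bases of AT1G34030 and AT4G09800, whose levels came nearer to each other in both mutants, are given in the same way, each 250 bases.
AT1G34030, chr1:12371555-12371804, minus strand: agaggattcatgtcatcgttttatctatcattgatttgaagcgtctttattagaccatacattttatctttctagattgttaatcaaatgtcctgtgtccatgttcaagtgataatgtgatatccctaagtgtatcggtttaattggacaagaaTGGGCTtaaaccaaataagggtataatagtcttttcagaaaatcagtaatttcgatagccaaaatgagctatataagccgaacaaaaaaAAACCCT
AT4G09800, chr4:6173462-6173711, plus strand: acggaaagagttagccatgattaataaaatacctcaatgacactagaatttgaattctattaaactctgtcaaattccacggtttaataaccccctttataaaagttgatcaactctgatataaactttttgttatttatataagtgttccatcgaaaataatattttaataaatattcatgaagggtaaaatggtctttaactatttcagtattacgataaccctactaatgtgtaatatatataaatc
AT1G34030 has 1 site II element and a telo box whose last base is the annotated start. AT4G09800 has no site II element in this window, and its telo box begins at base 7, counted from and including the start.

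Of the *RPS6* genes, 1 was higher in both mutants under every scaling. RPS6 is the small subunit protein that S6 kinase phosphorylates downstream of TOR, and its genes here give proteins that are 94.8% identical. AT4G31700 (*RPS6*) stood at 197, 192 and 197 CPM in Col, 237, 243 and 238 CPM in thp1-5 and 268, 270 and 269 CPM in sac3bc. The 3 groups did not overlap, and the spread within sac3bc was the smallest. AT5G10360 (*EMB3010*) stood at 210, 211 and 213 CPM in Col, 208, 208 and 193 CPM in thp1-5 and 219, 208 and 218 CPM in sac3bc, with thp1-5 below Col and sac3bc overlapping both. AT4G31700 was higher by 0.30 ± 0.03 in thp1-5 and 0.46 ± 0.03 in sac3bc (log2, SE; edgeR adjusted p = 1.78e-18 and 7.20e-34), under all 6 scalings. AT5G10360 was not called against Col on the TMM scale, at −0.06 ± 0.03 and 0.02 ± 0.03, and ranged up to 0.23 and 0.36 over the 6 scalings. AT4G31700 made up 48.2 ± 0.334% of the pair in Col, 54.4 ± 0.987% in thp1-5 and, for sac3bc, 55.8 ± 0.790% (SD, n = 3). The order of the paralogs was thus turned round in the mutants. The exact permutation test over the 3 groups gave p = 0.0107 for any difference in their log2 ratio and did not test the order.

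Upstream of the starts of the *RPS6* genes, both windows hold site II elements; at TGGGCCCA in AT5G10360 there are 2, which overlap on opposite strands.
AT4G31700, chr4:15347805-15348054, minus strand: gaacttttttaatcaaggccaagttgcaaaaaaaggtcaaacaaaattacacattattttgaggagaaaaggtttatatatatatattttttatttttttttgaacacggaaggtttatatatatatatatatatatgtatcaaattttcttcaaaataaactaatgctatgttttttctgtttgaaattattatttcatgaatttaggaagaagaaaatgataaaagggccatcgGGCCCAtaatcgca
AT5G10360, chr5:3260255-3260504, minus strand: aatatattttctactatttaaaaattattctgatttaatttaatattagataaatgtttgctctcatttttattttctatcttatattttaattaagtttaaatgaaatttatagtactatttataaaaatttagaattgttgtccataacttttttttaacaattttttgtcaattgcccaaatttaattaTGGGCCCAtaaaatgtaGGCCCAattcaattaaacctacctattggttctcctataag
The window of AT4G31700 has 1 site II element before the start and that of AT5G10360 has 3. Past the start, AT4G31700 has a further site II element that begins at base 7, counted from and including the start. AT5G10360 has a telo box that begins at base 24, counted likewise.

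**Figure D4:**
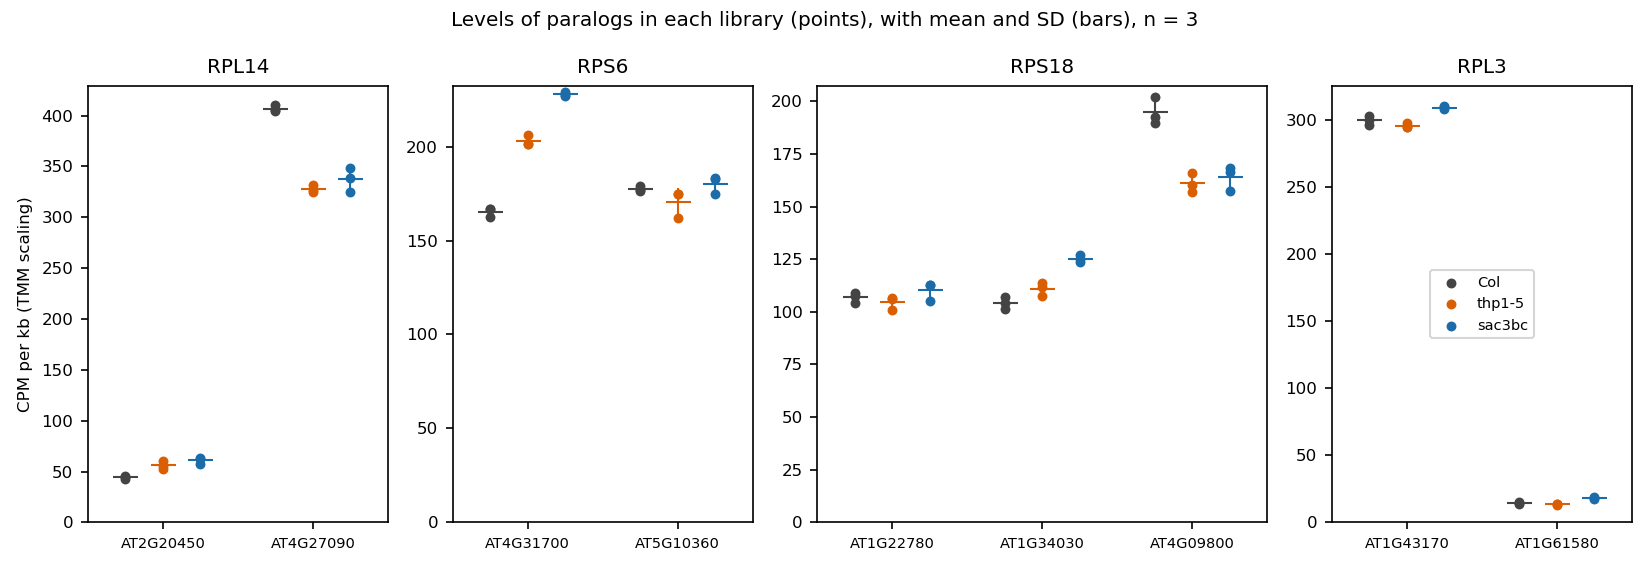
TMM-scaled CPM per kb (y axis) of paralogs of *RPL14*, *RPS6*, *RPS18* and *RPL3* in each library of Col (grey), thp1-5 (orange) and sac3bc (blue), with bars for the mean and SD of 3 libraries. AT4G27090 and AT4G09800 sit lower in both mutants on this scale and have log2 fold changes between −0.02 and 0.09 under total counts. AT4G31700 is higher in both mutants under all 6 scalings. That adds little to the TMM call, since all other scalings but RLE move every gene up against Col.

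A further 3 of the 6 pairs with the widest shifts hold a gene of low level. RPS9 has a major gene AT5G15200 and a minor gene AT5G39850. AT5G39850 stood at 13.1, 10.97 and 11.8 CPM in Col, 8.41, 8.42 and 8.09 CPM in thp1-5 and 11.1, 10.7 and 10.1 CPM in sac3bc. It was lowest in thp1-5, where its fold change was −0.52 ± 0.11 (edgeR adjusted p = 3.18e-05), called under 5 of 6 scalings and between −0.52 and −0.23 in all of them, and it was higher in sac3bc than in thp1-5 by 0.35 ± 0.11 (edgeR adjusted p = 0.00945). AT5G15200 stood at 294, 279 and 294 CPM in Col, 288, 273 and 282 CPM in thp1-5 and 313, 291 and 288 CPM in sac3bc, with all groups overlapping.

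*RPL10B* (AT1G26910), a minor gene of the RPL10 family, stood at 9.26, 8.69 and 9.08 CPM in Col, 11.2, 11.3 and 10.4 CPM in thp1-5 and 12.02, 12.1 and 12.5 CPM in sac3bc. Its 3 groups did not overlap, and it was higher by 0.29 ± 0.11 in thp1-5 and 0.44 ± 0.11 in sac3bc (log2, SE; edgeR adjusted p = 0.0197 and 0.000151). *SAC52* (AT1G14320), the major gene, known from a suppressor of the dwarf mutant acaulis5, stood at 251, 246 and 251 CPM in Col, 237, 240 and 238 CPM in thp1-5 and 263, 255 and 264 CPM in sac3bc. It was called lower in thp1-5 by 0.07 ± 0.03 on the TMM scale and higher under total counts, at 0.22. *SAG24* (AT1G66580), named for its senescence-associated expression, stood at 102, 108 and 108 CPM in Col, 110, 110 and 108 CPM in thp1-5 and 135, 126 and 125 CPM in sac3bc. In sac3bc it stood above both other groups, by 0.28 ± 0.04 against Col and 0.23 ± 0.03 against thp1-5, in all 6 scalings. The share of *SAC52* in its pair with *RPL10B* was 95.8 ± 0.0890% in Col, 94.7 ± 0.226% in thp1-5 and, for sac3bc, 94.6 ± 0.103% (SD, n = 3; p = 0.0214, exact permutation test).

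*RPL3B* (AT1G61580) stood at 22.8, 21.1 and 20.4 CPM in Col, 20.3, 20.4 and 19.6 CPM in thp1-5 and 26.3, 27.0 and 28.1 CPM in sac3bc. RPL3 lies near the peptidyl transferase centre of the large subunit. sac3bc lay above both other groups, by 0.35 ± 0.07 against Col and 0.43 ± 0.07 against thp1-5 (log2, SE; edgeR adjusted p = 1.10e-05 and 2.11e-07), under all 6 scalings. The major gene *RP1* (AT1G43170) stood at 527, 522 and 516 CPM in Col, 513, 513 and 518 CPM in thp1-5 and 540, 536 and 539 CPM in sac3bc. It was not called against Col on the TMM scale, but was called higher under 3 of the 6 scalings in thp1-5 and 4 in sac3bc, and on the TMM scale it was higher in sac3bc than in thp1-5 by 0.06 ± 0.02 (edgeR adjusted p = 0.0295).

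RPS24, a small subunit protein, has 2 genes in the set. AT5G28060 stood at 154, 153 and 159 CPM in Col, 126, 133 and 129 CPM in thp1-5 and 141, 130 and 132 CPM in sac3bc. Both mutants lay below Col, on the TMM scale by 0.26 ± 0.03 and 0.21 ± 0.03 (log2, SE; edgeR adjusted p = 2.37e-12 and 3.93e-09), but under total counts its values were 0.02 and 0.13. Over the 6 scalings AT5G28060 was called lower under 4 in thp1-5, and in sac3bc lower under 4 and higher under 2. AT3G04920 was at 0.07 ± 0.03 in thp1-5, not called, and higher by 0.15 ± 0.03 in sac3bc. Its share of the pair was 37.2 ± 0.328% in Col, 42.7 ± 0.698% in thp1-5 and, for sac3bc, 43.2 ± 0.771% (SD, n = 3; p = 0.0143, exact permutation test). *RPS5A* (AT3G11940), which is known to be essential in the embryo, was lower by 0.25 ± 0.03 and 0.11 ± 0.03 on the TMM scale, with values up to 0.03 and 0.22 over the 6 scalings. It was called lower under 4 of them in thp1-5, and in sac3bc lower under 2 and higher under 2. Its share of the pair with *RPS5B* (AT2G37270) went from 74.2 ± 0.333% in Col to 70.6 ± 0.724% in thp1-5 and, for sac3bc, 70.2 ± 1.14% (SD, n = 3; p = 0.0286, exact permutation test). The share of *RPL23AA* (AT2G39460) in its pair with *RPL23AB* went from 60.2 ± 0.920% to 58.1 ± 1.06% and 55.5 ± 0.631% (SD, n = 3; p = 0.00357, exact permutation test).

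The other 23 genes, for which no library values are given, had 6 called higher and 7 lower in thp1-5 against Col, with values from −0.25 to 0.28, and 15 higher and 2 lower in sac3bc, from −0.11 to 0.41. Between the mutants 17 of them were higher in sac3bc and 0 lower, from 0.03 to 0.21. The shares of all genes tested were 32.1% higher and 31.8% lower in thp1-5 against Col, and 35% and 33% in sac3bc. In sac3bc against thp1-5 they were 10.9% and 12.1%. *RPL19* (AT1G02780), an essential large subunit gene, was lower by 0.14 ± 0.03 in thp1-5 and 0.10 ± 0.03 in sac3bc on the TMM scale and called higher in both under total counts. *RPS13A* (AT4G00100), known for pointed leaves when lost, was lower by 0.09 ± 0.04 in thp1-5 and called higher there under total counts. AT5G02870 of *RPL4* was lower in thp1-5 by 0.09 ± 0.03 with the same reversal, while in sac3bc it was higher by 0.12 ± 0.03 under all 6 scalings.

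*RACK1A* (AT1G18080), the *RACK1* gene of the set, stood at 213, 200 and 214 CPM in Col, 211, 205 and 199 CPM in thp1-5 and 233, 225 and 220 CPM in sac3bc. sac3bc lay above both other groups, which overlapped. The fold change was −0.03 ± 0.03 in thp1-5, not called, 0.11 ± 0.03 in sac3bc against Col and 0.14 ± 0.03 in sac3bc against thp1-5 (log2, SE; edgeR adjusted p = 0.437, 0.000406 and 5.01e-05). Under total counts *RACK1A* was higher in thp1-5 than in Col as well, at 0.26. The paralogs outside the set, AT1G48630 and AT3G18130, were higher, on the TMM scale, by 0.41 ± 0.05 and 0.29 ± 0.06 in thp1-5 and by 0.63 ± 0.05 and 0.53 ± 0.06 in sac3bc (edgeR adjusted p at most 7.75e-06).

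Levels between genes were compared per length in Col. AT4G27090 was highest at 407 ± 3.24 CPM per kb, above *RPL19* at 359 ± 12.6 CPM per kb by more than their spread (SD, n = 3). *RACK1A* was at 144 ± 5.43 CPM per kb, in place 21 of 38. The lowest were *RPL3B* at 14.4 ± 0.851, AT5G39850 at 11.5 ± 1.06 and *RPL10B* at 8.60 ± 0.281 CPM per kb. No read-length window of 150 nt in the longest annotated transcript of each of the 38 genes occurs at another locus. Within these transcripts, paralogs can be told apart by reads that match exactly. Windows of their other transcripts were not searched.

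Other genes of the translation machinery were set beside the members. Of 166 other cytosolic ribosomal protein genes tested, 50 were higher and 40 lower in thp1-5 against Col, 94 higher and 22 lower in sac3bc, and 76 higher and 0 lower in sac3bc against thp1-5, with medians of 0.01, 0.12 and 0.10 on the TMM scale. On that scale 32.1% of all genes tested were higher and 31.8% lower in thp1-5, and 35% and 33% in sac3bc. Between the mutants these shares were 10.9% and 12.1%. Under total counts 138 of the 166 genes were higher and 3 lower in thp1-5, and 155 higher and 2 lower in sac3bc. Of all genes tested, 56% and 60.8% were then higher in thp1-5 and sac3bc. Of 15 tested paralogs of the members outside the set, 10 were higher and 2 lower in thp1-5, and 12 higher and 2 lower in sac3bc, with medians of 0.32 and 0.49. Among them AT3G57490 of *RPS2* was higher by 0.65 ± 0.09 in thp1-5 and 1.00 ± 0.09 in sac3bc. The 9 ribosome biogenesis factors had 8 higher and 1 lower in thp1-5, and 9 higher and 0 lower in sac3bc, and under total counts all 9 were higher in each mutant. *FIB2* (AT4G25630), a fibrillarin that methylates ribosomal RNA in the nucleolus, was higher by 0.55 ± 0.07 and 0.93 ± 0.07. Of 17 translation factor genes, 10 were higher and 5 lower in thp1-5, and 12 higher and 5 lower in sac3bc, against 13 higher with 3 and 2 lower under total counts. *PAB2* (AT4G34110), a poly(A) binding protein, was lower in sac3bc by 0.64 ± 0.03. The 6 TOR signalling genes split into 3 higher and 3 lower in each mutant on the TMM scale and 4 higher and 1 lower under total counts, and *S6K2* (AT3G08720), a kinase of RPS6, was higher by 0.77 ± 0.10 in thp1-5 and 1.16 ± 0.09 in sac3bc.

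The promoters shared motifs that the choice of members did not use. In the window of 250 bases before and 50 after the start, a telo box (AAACCCTA on either strand) was found in 20 of the 38 promoters, or 52.6%, against 6.22% of 27443 nuclear protein-coding genes. A site II element (TGGGCC or TGGGCT on either strand) was in 31, or 81.6%, against 21.7%. For most of the 20 genes with a telo box, it began only past the annotated start. Both motifs were in 44.7% of the members and 2.20% of all genes, and neither in 10.5% and 74.3%. Other ribosomal protein genes had shares of 47.6% and 74.9% for the telo box and site II. In sac3bc against Col the median log2 fold change was 0.06 for the 20 genes with a telo box and 0.14 for the 18 without, while for site II it was 0.13 for the 31 with it and 0.05 for the 7 without. In thp1-5 the 4 medians, in the same order, were −0.03, −0.01, 0.01 and −0.04. Ranges of genes with and without a motif overlapped in each case, and no difference by motif was tested.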

How the data were processed

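The authors deposited whole-number read counts per gene with 1 gene length per locus, in 1 table per library. STAR and DESeq2 are named in the submitters' processing notes, without version or role. Neither the counting program nor its strand setting, and neither the build nor the annotation, is stated in the labels or files used here. Reads were single-end of 150 nt from poly(A)-selected libraries, per the labels. Deposited gene lengths equalled the exon union of the TAIR10.1 RefSeq annotation for all 38 genes, and this annotation gave names, sequences and coordinates.

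For the 9 libraries edgeR 4.0.16, under R 4.3.3, gave TMM factors, a filterByExpr selection (minimum count 10) and quasi-likelihood F-tests with robust fitting, from 1 model of the 3 groups. The threshold was a Benjamini-Hochberg adjusted p of 0.05 over all 22400 genes tested. Standard errors are the absolute log2 fold change over the square root of F. CPM values are TMM-scaled. Paralog ratios used counts plus 0.5 per length, and p-values of pairs are unadjusted. The edgeR and permutation steps were tested on simulated data. DESeq2 1.42.0, other scalings, no filter, a replicate block, only the 2 groups compared and each library left out were alternatives.

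The members and lists were chosen with earlier results of these data known. Library values are given for *RACK1A*, for the 3 called genes with the largest rise and fall in each comparison, and for the 6 pairs with the largest range of ratios. Of the lists, up to 2 called genes per list and comparison with the largest change could be named; AT1G48630 and AT3G18130 were named after their values were seen. Exonic bases shared with other loci reached 3.12% for AT4G09800 and less for the other members, 2.37% for AT2G36620 and 1.08% for AT1G61580 among them. Depth was 12.8 to 17.9 M counts per library, and counting error weighs most on members of low level. Of the 38 genes, 1 is counted in the totals but not reported singly here.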

Additional observations from a re-analysis of the deposited data

How the results depend on the processing

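Scaling changed the counts of called genes against Col more than any other choice. In thp1-5 against Col, genes called higher, genes called lower and the median were 33, 0 and 0.27 under total counts, 16 higher with a median of 0.0312 under upper quartile factors, 21, 5 and 0.0945 under reference genes, and 32, 2 and 0.22 under trimmed total counts. In sac3bc against Col they were 37, 0 and 0.45 under total counts, 3 lower with a median of 0.18 under upper quartile factors, 3 lower with 0.21 under reference genes, and 35, 0 and 0.40 under trimmed total counts. Of all genes tested, 56%, 36.2%, 41.1% and 52.7% were called higher in thp1-5 under these scalings, in the order given. In sac3bc these shares were 60.8%, 39.8%, 42% and 56.7%. Between the mutants the median was 0.17 under total counts and 0.16 under trimmed total counts. The cause of these shifts was not tested beyond the scaling factors. The gain in the share of counts was 0.115 percentage points in thp1-5 and 0.197 in sac3bc without organelle loci and the 10 most abundant loci.

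In thp1-5 against Col, 17 of the members were above 0 and 2 below 0 under all 6 scalings, and the others changed sign. Only those with library values in the text are listed here. Under total counts AT1G43170 stood at 0.27, AT1G61580 at 0.20, AT1G14320 at 0.22, AT5G10360 at 0.23, AT5G15200 at 0.25, AT4G09800 at 0.0151, AT5G28060 at 0.0236 and AT1G18080 at 0.26. Under upper quartile factors AT1G43170 stood at 0.0352, AT5G15200 at 0.0147 and AT1G18080 at 0.0271. Under reference genes AT1G43170 stood at 0.0985, AT1G61580 at 0.0296, AT1G14320 at 0.0498, AT5G10360 at 0.0583, AT5G15200 at 0.0786 and AT1G18080 at 0.0904. Under trimmed total counts AT1G43170 stood at 0.23, AT1G61580 at 0.16, AT1G14320 at 0.18, AT5G10360 at 0.19, AT5G15200 at 0.21 and AT1G18080 at 0.22. In sac3bc against Col, 29 of the members were above 0 and 0 below 0 under all 6 scalings. Of the others, AT4G27090, AT5G39850, AT4G09800 and AT5G28060 have library values in the text. They stood at 0.0646, 0.17, 0.0868 and 0.126 under total counts and at 0.0108, 0.116, 0.033 and 0.0726 under trimmed total counts.

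Same-numbered libraries did not deviate together (correlations from −0.01 to 0.05), so the numbers were not taken as pairs. With a replicate block 10 genes were higher and 12 lower in thp1-5, 24 and 5 in sac3bc, and 28 and 0 between the mutants, and 10 of the pairs had p under 0.05, where the smallest possible p is 0.0278. Leaving out each library in turn gave 7 to 10 higher and 9 to 12 lower in thp1-5, 21 to 24 and 5 in sac3bc, 23 to 28 and 0 between the mutants, and 15 to 17 pairs.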
